A study of Mus musculus with 15 samples.

Results

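The promoters of the cytosolic ribosome and of the translation factors were taken from a promoter-capture Hi-C table of mouse hippocampal neuronal nuclei. Members were all promoters whose deposited gene name begins with Rpl, Rps, Eif or Eef followed by a digit, without the Rps6 kinase genes. There were 50 such promoters among 4429, with 393 of the 36353 listings, a listing being a promoter paired with a HindIII fragment. Promoter-capture Hi-C joins DNA fragments that lie close together in the nucleus, enriches those joined to chosen promoters with RNA baits and counts the joined pairs by sequencing. The 15 libraries comprised Basal (3 libraries) and Early, Late and Reactivated (4 libraries each). All came from hippocampi of mice labelled ArcCreERT2 x R26R-STOP-floxed with an eYFP reporter, genotype +/+; in this line the Arc promoter drives a tamoxifen-dependent Cre, so that cells with active Arc become yellow fluorescent while 4-hydroxytamoxifen is present. Per the protocol, a dose of 4-hydroxytamoxifen preceded contextual fear conditioning by 1 h, nuclei were stained for NeuN and GFP and sorted, and tissue of 10 to 12 mice was pooled for 10000 nuclei. Brains were taken between 1.5 and 2 h later, or on the fifth day, when part of the cohort met the fear cue again. The treatment labels give every library, Basal included, a foot shock and no recall, and each a collection day of its own, from 0 to 2 in Basal, 3 to 6 in Early, 7 to 10 in Late and 11 to 14 in Reactivated. These days conflict with the protocol, and the labelled day cannot be told apart from the group. The age of the mice is not given in the labels. In pooled nuclei, a weaker contact and a contact in fewer nuclei cannot be told apart.

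The cytosolic ribosome has a small subunit, which reads the mRNA, and a large subunit, which joins the amino acids. Initiation factors bring the small subunit, the initiator tRNA and the capped mRNA together, and elongation factors then drive the addition of amino acids. In neurons, new protein synthesis is needed for lasting memory, and the step at which the cap-binding protein eIF4E is bound is a main point of control. Mammalian ribosomal protein genes are single expressed genes with introns that have left many processed pseudogenes, intron-less copies inserted elsewhere in the genome, and their mRNAs typically begin with a run of pyrimidines that places them under the control of the mTOR kinase.

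Libraries differed strongly in size. The number of listings with a score ran from 35 to 12133 per library and the sum of scores from 3114 to 9590409, and the 2 smallest and the 2 largest libraries were all Reactivated. Libraries of a group also shared fragments. Basal 1 and 2 had 91.3% of the fragments of the smaller library in common, Early 3 and 4 had 82.0%, Late 1 and 2 had 48.3%, Late 3 and 4 had 90.8%, Reactivated 1 and 2 had 100.0%, and Reactivated 3 and 4 had 95.7%. Counting such libraries as a set left 9 sets. The labels call them replicates without naming separate animals, so p-values measure the spread between these libraries, which may be technical.

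The member promoters took between 0.89% and 1.31% of the listings in every library except Reactivated 1 and 2. The 3 Basal libraries had 47, 39 and 63 member listings with a score, the Early libraries 73, 22, 62 and 60, the Late libraries 37, 49, 78 and 74, and the Reactivated libraries 0, 3, 138 and 135. The Reactivated libraries thus held both the fewest and the most, and the other groups overlapped. As a share of each library's listings, Basal had 1.01% ± 0.04 (SD, n = 3), Early 1.08% ± 0.16, Late 1.06% ± 0.18 and Reactivated 0.77% ± 0.54 (SD, n = 4 each). In the library Reactivated 1, 0 of 35 listings were of members, which allows a share of up to 8.57% (3 counts; counting error only), and in Reactivated 2 the 3 included a fragment of *Rps14* with a score of 407 and of *Eif4e2* with 114.

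**Figure D1:**
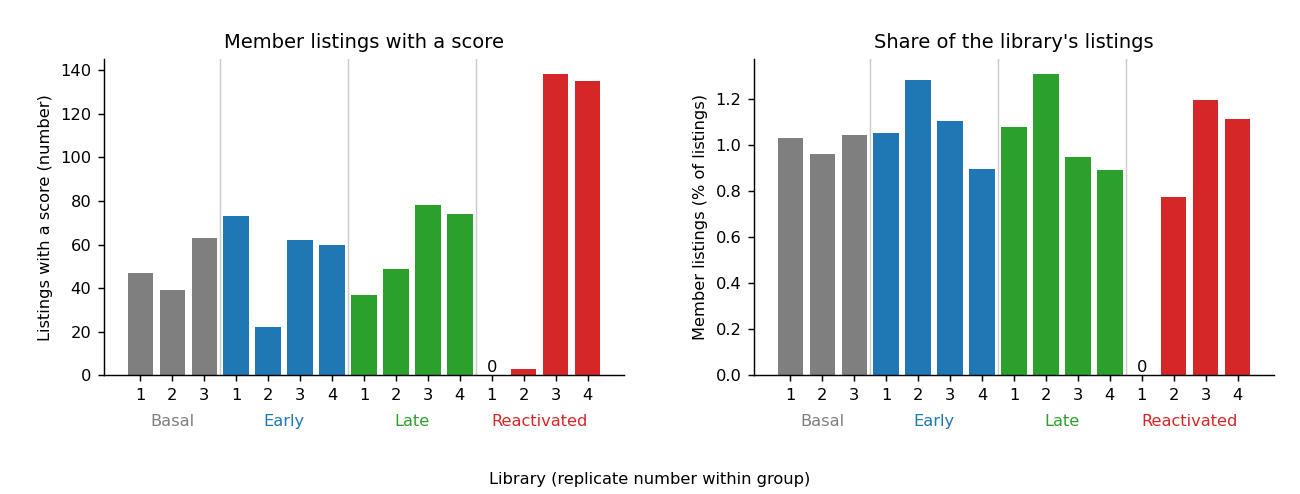
Member listings with a score in each library (left, number) and as a percentage of all listings with a score in that library (right), with libraries on the x axis by group. Bars stand for single libraries. Reactivated 1 and 2 had 0 and 3 member listings, Reactivated 3 and 4 had 138 and 135, and the share lay between 0.89% and 1.31% in all libraries but Reactivated 1 and 2.

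In number and recurrence of fragments the members lay near the rest of the table. A member had a median of 6.5 listed fragments (quartiles 4 and 9), against 6 (quartiles 3 and 11) for the 4379 other promoters. A member listing was scored in 2.24 libraries on average, against 2.30 for other listings. Of the member listings 35.1% were scored in a single library and 64.6% in a single library set, against 32.7% and 65.6% of the others. Only 4 member listings (1.02%, against 1.61% of the others) were scored in all 4 groups. A score in every group was found for 29 of the 50 members (58.0%), against 55.7% of the other promoters. The median HindIII fragment was 3050 bp long for members and 2964 bp for the others. These values describe the table and were not tested.

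Of the 17 large subunit proteins, *Rpl21* had the most listed fragments of any member, 36, with a score in 11 libraries. *Rpl36al*, an expressed relative of *Rpl36a*, followed with 21 fragments in 12 libraries. *Rpl24* had 9 fragments in 10 libraries. With 7 fragments each, *Rpl13* and *Rpl13a*, the second of which is released from the ribosome to silence inflammatory mRNAs, were scored in 7 libraries. *Rpl23a* had 6 fragments in 5 libraries. With 5 fragments each, *Rpl22l1*, a paralogue of *Rpl22*, was scored in 6 libraries, *Rpl27* in 7, *Rpl38*, which mouse embryos need to translate certain Hox mRNAs, in 8, and *Rpl35* in 2. *Rpl5* and *Rpl11*, whose proteins join the ribosomal RNA of the central protuberance and can bind Mdm2, had 5 and 4 fragments and were both scored in 5 libraries. *Rpl36* had 4 fragments in 10 libraries, *Rpl27a* 3 in 9, *Rpl18* 2 in 6, and *Rpl28* 2 in 3. This class was the most scattered of the 5, with 44.1% of its 136 listings in a single library and 72.8% in a single set.

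Of the 12 small subunit proteins, *Rps23*, whose protein sits at the decoding centre, had 25 fragments and a score in 13 libraries. *Rps27a*, which encodes ubiquitin fused to a ribosomal protein, had 14 fragments in 13 libraries, and *Rps14* 13 in 14 libraries. With 8 fragments each, *Rps19*, mutated in human Diamond-Blackfan anaemia, was scored in 10 libraries and *Rps26* in 6. With 7 each, *Rps7* was scored in 8 libraries and *Rps24* in 7. *Rps6*, the substrate of the S6 kinases, had 4 fragments in 8 libraries, *Rps15* 2 in 8 and *Rps15a* 1 in 3. No member was scored in more libraries than *Rps14*, with 14 of 15, and it was scored in all 9 library sets. This class shared the largest part of its fragments with other promoters, 25 of 97 listings (25.8%).

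The 12 initiation factors had between 2 and 13 fragments. Among the subunits of eIF3, the scaffold that holds the initiation complex, *Eif3b* had 13 fragments in 10 libraries, *Eif3a* 6 in 8 and *Eif3d* 6 in 9. *Eif4e*, the cap-binding protein, had 4 fragments in 7 libraries, its repressive relative *Eif4e2* 4 in 7, and its relative *Eif4e3* 12 in 11. *Eif4h* and *Eif4b*, cofactors of the eIF4A helicase, had 9 fragments in 9 libraries and 2 in 4. *Eif4g2*, an eIF4G relative without the eIF4E-binding part, had 6 in 7 libraries. *Eif2s3x*, the X-linked gene of the gamma subunit of eIF2, had 4 fragments in 6 libraries, *Eif1ax*, a factor of start codon scanning, 5 in 6, and *Eif2d*, a tRNA-binding factor, 8 in 6. All 12 were scored in Basal, 10 in Early, 9 in Late and all 12 in Reactivated.

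Of the 5 elongation factors, *Eif5a2* had 10 fragments in 10 libraries and its paralogue *Eif5a*, the hypusine-bearing factor that helps peptide bonds form, 7 in 10. *Eef1d* and *Eef1g*, subunits of the exchange factor that reloads eEF1A, had 9 fragments in 12 libraries and 7 in 11. *Eef1a2*, the eEF1A form of mature neurons and muscle, had 1 fragment, scored in a single library, Basal 3, at 48. Of the 4 regulators of initiation, *Eif4ebp1* had 20 fragments in 13 libraries and *Eif4ebp2*, the main eIF4E-binding protein of the brain, 14 in 11. *Eif4enif1*, which shuttles eIF4E, had 12 in 10, and *Eif2ak2*, the double-stranded RNA kinase PKR, 1 in 3.

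**Figure D2:**
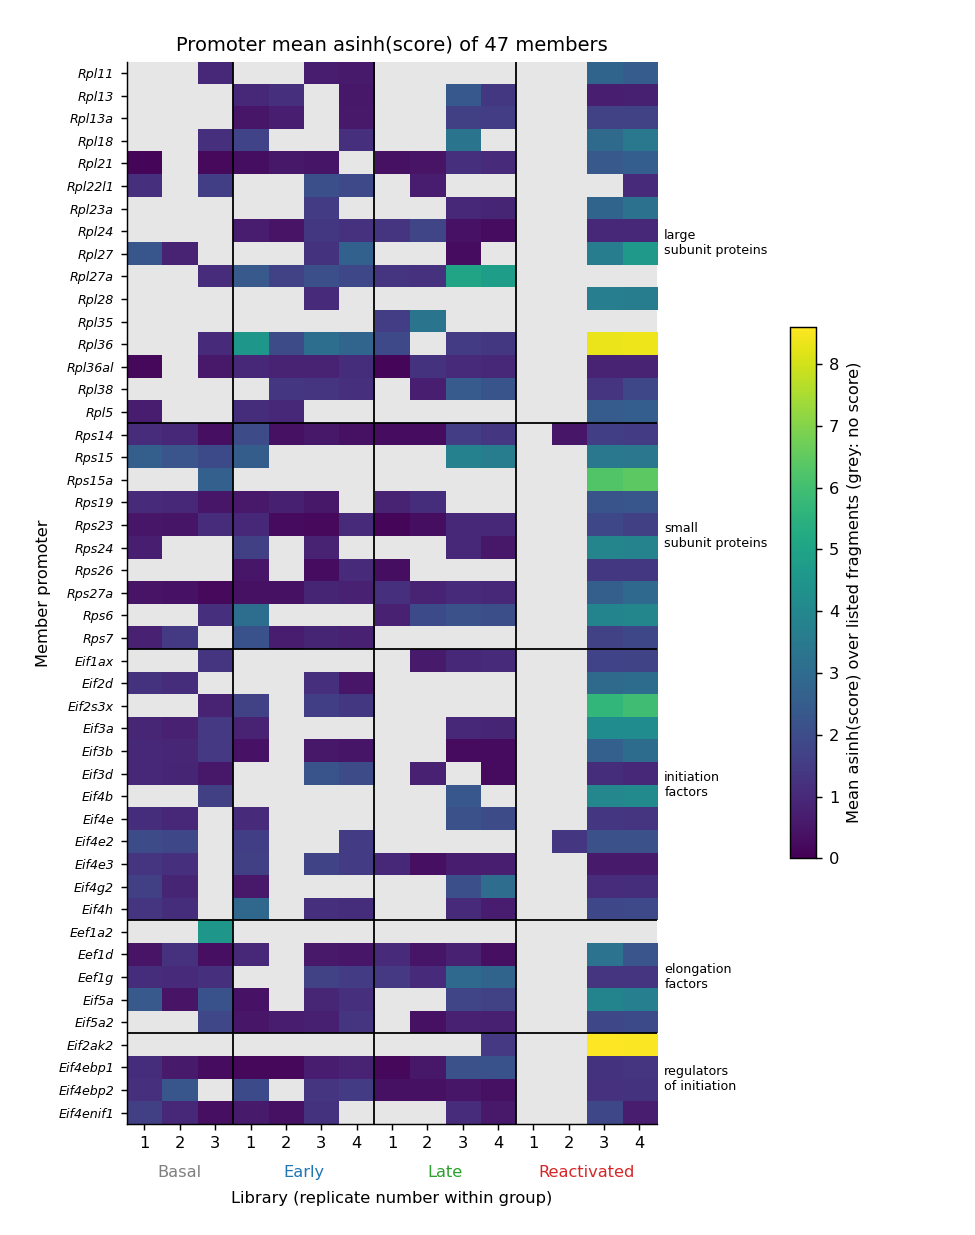
Mean asinh(score) of each member promoter over its listed fragments (colour; grey where no fragment had a score), with 47 of the 50 members down the page by role and the 15 libraries across by group. Reactivated 3 and 4 carry the brightest cells, *Eif2ak2* at 8.60 and 8.55 and *Rpl36* at 8.33 and 8.38, while Reactivated 1 is grey throughout and Reactivated 2 nearly so.

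Many ribosomal protein promoters were paired with fragments far from the gene they are named for. For 10 of the 50 members (20.0%), fragments were listed on another chromosome than that of the annotated gene, against 3 of the 4374 other promoters that matched the annotation (0.0686%). The annotation was RefSeq on GRCm38.p6, used here for the chromosome and the neighbours of a gene only, while fragment coordinates are those of the table on mm9. By listing, it was 76 of 393 (19.3%) for the members, against 32 of 35960 (0.0890%). All 10 were ribosomal protein genes, 6 of the large and 4 of the small subunit, and none of the 21 factor and regulator genes was among them. Of the 8 promoters in the whole table with fragments on several chromosomes, 6 were members. This comparison used only gene names and positions, with no scores, and it was seen in the data before it was counted.

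Some of these members had no fragment at all on the chromosome of their gene. All 14 fragments of *Rps27a*, a gene of chromosome 11, were on chromosome 9, mostly around chr9:83013528-83819722. All 7 of *Rpl13*, a gene of chromosome 8, were on chromosome 14, and all 7 of *Rpl13a*, a gene of chromosome 7, were on chromosome 19, between 49607689 and 55068147. Both fragments of *Rpl28*, a gene of chromosome 7, were on chromosome 6. The 6 of *Rpl23a*, a gene of chromosome 11, were divided between chromosome 1 with 2 and chromosome 14 with 4.

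The other 5 had fragments on both. *Rpl21*, a gene of chromosome 5, had 8 fragments there and 28 elsewhere, 9 on chromosome 17, 6 on chromosome 14, 6 on chromosome 3, 5 on chromosome 7 and 2 on chromosome 8. *Rps19* had 6 of 8 on chromosome 18 and 2 on its own chromosome 7. *Rps26* had 4 of 8 on chromosome 8 and 4 on its own chromosome 10. *Rps6* had 1 of 4 on chromosome 8, and *Rpl27a* 1 of 3 on chromosome 14.

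Each of the 15 pairs of a member and such a chromosome had an annotated pseudogene of the same name on that chromosome. *Rpl13a* and *Rps26* have a single annotated pseudogene each, *Rpl13a-ps1* on chromosome 19 and *Rps26-ps1* on chromosome 8, the chromosomes where their fragments were listed. *Rpl21* has 15 on 12 chromosomes, *Rps19* 13 on 10 and *Rpl23a* 13 on 8. For 13 of the 15 pairs, at least 1 of the 6 promoters of the table with the nearest fragments was of a gene within 5 coding genes of that pseudogene. For *Rps27a* these were *Lca5*, *Hmgn3*, *Phip*, *Irak1bp1* and *Mei4*, near *Rps27a-ps2*, and for *Rpl27a* all 6, including *Slitrk1*, *Slitrk5*, *Slitrk6* and *Spry2*, near *Rpl27a-ps2*. For *Rps26* and *Rps6* there were none. How often matches of either kind arise for other chromosomes was not counted. A same-named pseudogene anywhere in the annotation was found for 24 of the 50 members, these 10 included. The 3 other promoters were *Gad1*, with 11 fragments on chromosome 10 where *Gad1-ps* lies, *Orai2*, with 6 on chromosome 16 and *Orai2-ps*, and *Rpsa*, with 15 on chromosome 3 and *Rpsa-ps10*. *Rpsa* encodes a small subunit protein too, which the naming rule leaves out. The positions of the baits are not in the table, so whether the bait stood at the gene or at the copy was not tested.

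**Figure D3:**
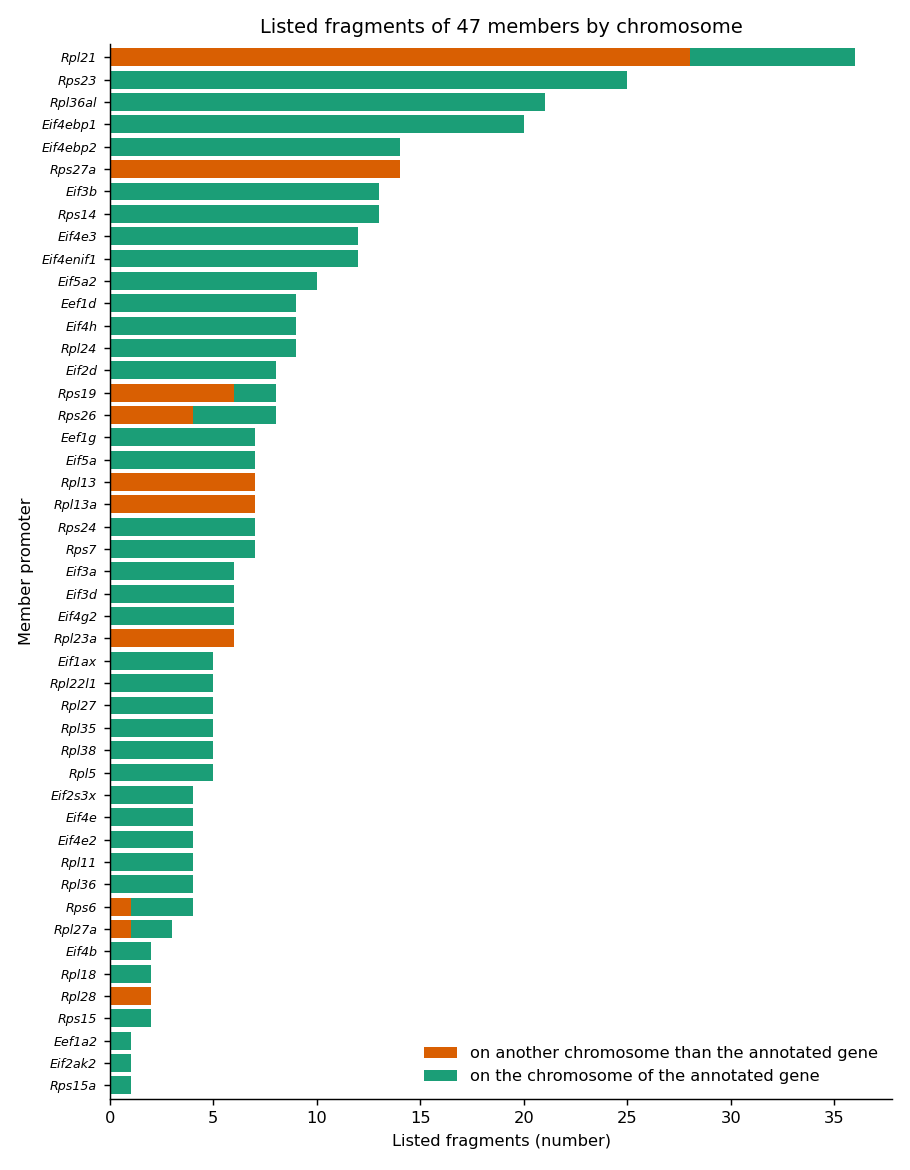
Listed fragments of 47 of the 50 member promoters (x axis, number), split into those on another chromosome than the annotated gene and those on its own. Off-chromosome fragments are found in 10 members, all of them ribosomal protein genes, with 28 of 36 for *Rpl21*, 14 of 14 for *Rps27a* and 7 of 7 for *Rpl13* and *Rpl13a*.

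The sequence before the start of transcription belongs to the annotated gene and is not part of the mRNA from which a processed copy is made, so it is shown for the genes whose fragments lay elsewhere. Sequences were taken from RefSeq on GRCm38.p6, which had an entry for 37 of the 50 members and for 7 of the 10 with fragments on other chromosomes. Those 7 are given, with *Eif4e* as a factor gene beside them, from 40 bases before the start of transcription to the first 20 transcribed bases; capitals mark runs of C or T that have 8 or more of their bases inside the window from 10 bases before to 20 bases after the start.
Rpl13, chr8:123102310-123102369, + strand: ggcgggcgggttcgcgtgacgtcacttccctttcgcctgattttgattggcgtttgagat
Rpl13a, chr7:45128726-45128785, - strand: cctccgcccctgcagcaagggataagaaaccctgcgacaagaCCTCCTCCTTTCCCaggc
Rpl27a, chr7:109519155-109519214, + strand: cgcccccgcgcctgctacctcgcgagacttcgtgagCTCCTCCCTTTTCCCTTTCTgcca
Rpl28, chr7:4792925-4792984, + strand: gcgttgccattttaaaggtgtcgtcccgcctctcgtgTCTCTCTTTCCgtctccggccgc
Rps6, chr4:86857348-86857407, - strand: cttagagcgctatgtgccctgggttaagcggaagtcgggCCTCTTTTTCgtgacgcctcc
Rps19, chr7:24884552-24884611, + strand: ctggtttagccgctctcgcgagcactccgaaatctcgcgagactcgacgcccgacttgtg
Rps26, chr10:128626487-128626546, - strand: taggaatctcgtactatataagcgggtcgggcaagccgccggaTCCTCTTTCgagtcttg
Eif4e, chr3:138526151-138526210, + strand: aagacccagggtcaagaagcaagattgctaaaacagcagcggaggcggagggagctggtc

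Such a run was present in 5 of these 7 ribosomal protein promoters and absent from those of *Rpl13* and *Rps19* as annotated. In these 5 the run lay wholly or mostly in the transcribed bases, which are part of the mRNA. *Rpl13* has a run of C and T upstream of which only the end lies in the window. Over all members with a sequence it was found in 11 of 21 ribosomal protein promoters (52.4%) and 2 of 16 factor and regulator promoters (12.5%), *Eif2s3x* and *Eif4enif1*, against 12.1% of 3225 other promoters of the table and 11.2% of all 27025 promoters in RefSeq. The search was for C or T on the transcribed strand only. The 6-base HindIII site AAGCTT, which reads the same on both strands, was present within the 300 bases around the start in 3 of 37 members (8.11%) and in 5.33% of the other promoters of the table.

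The fragments on other chromosomes were scored in 1.91 libraries on average, against 2.32 for the 317 member listings on the gene's own chromosome, and 36.8% against 34.7% were scored in a single library. An interaction was called in a group at a score of 5 or more in any of its libraries. Among the 76 there were 6 Basal, 22 Early, 30 Late and 30 Reactivated calls, and among the 317 there were 102 Basal, 127 Early, 105 Late and 111 Reactivated calls. The most recurrent of the 76, *Rps27a* with chr9:83287159-83293394, had scores of 324 and 188 in Basal 1 and 2, 452 and 206 in Early 3 and 4, and 462 and 422 in Reactivated 3 and 4, and none in the 9 other libraries. It was listed with the same scores for *Hmgn3*, *Larp6* and *Lca5*.

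*Rps19* showed how differently libraries could score a single promoter. Its fragment chr18:40685838-40693182 had scores of 2027, 1282 and 34 in the 3 Basal libraries and none in the 12 others. Its fragment chr18:40891666-40894367 had scores of 5205 and 5525 in Reactivated 3 and 4 and none in the 13 others. The higher-scored of its 2 fragments on its own chromosome, chr7:25681821-25688739, shared with *Dedd2*, had 53 and 44 in Early 1 and 3 and 2894 and 3927 in Reactivated 3 and 4. The first of these was scored in every Basal library and in no other, as was the *Rps23* fragment chr13:91098636-91113082, with 366, 258 and 58. The limma difference for the first was -6.79 ± 1.90 on the asinh scale (SE) in Early against Basal, with an adjusted p of 0.185 over all listings. Without the variance trend both passed, 2 of 393 member listings, in the 3 comparisons with Basal, against 0.391% of all listings for Early, 0.553% for Late and 0.402% for Reactivated.

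The members' 4 most recurrent fragments lay on the gene's own chromosome, and those of *Eef1g* and *Rpl36* were shared with other promoters. *Eef1g* with chr19:9055860-9062952 was scored in 9 libraries, with 1203, 668 and 12 in Basal, 230 and 139 in Early 3 and 4, and 6, 10, 1541 and 1098 in Late. It had no score in Reactivated, Early 1 or Early 2, and it was listed also for *Syt12*. *Rpl36* with chr17:56719258-56722671 was scored in 8 libraries, with 493, 153 and 82 in Early 1, 3 and 4, 15, 219 and 132 in Late 1, 3 and 4, and 2944 and 2587 in Reactivated 3 and 4. It had no score in Basal, and it was listed also for *Cul9*, *Ptprs* and *Safb2*.

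*Eif4ebp2* with chr10:60906300-60910791 had scores of 56 in Basal 2, 41, 261 and 170 in Early 1, 3 and 4, 17 and 8 in Late 3 and 4, and 90 and 93 in Reactivated 3 and 4. It was 1 of the 4 member fragments seen in all groups and belonged to no other promoter. *Rpl36al* with chr12:70327517-70329328 had 25 and 13 in Basal 1 and 3, 362 and 209 in Early 3 and 4, and 15, 27, 105 and 78 in Late. It had no score in Reactivated. *Rps6* and *Rpl36* each had a fragment seen in all groups too, but these were listed also for other promoters. For *Rps6* with chr4:86527110-86533070, scores were 58 in Basal 3, 227 in Early 1, 2540 and 1952 in Late 3 and 4, and 2048 and 2776 in Reactivated 3 and 4. The *Rps6* fragment was listed also for *Acer2* and *Adamtsl1*, and that of *Rpl36*, chr17:56723207-56732292, for *Ptprs*.

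**Figure D4:**
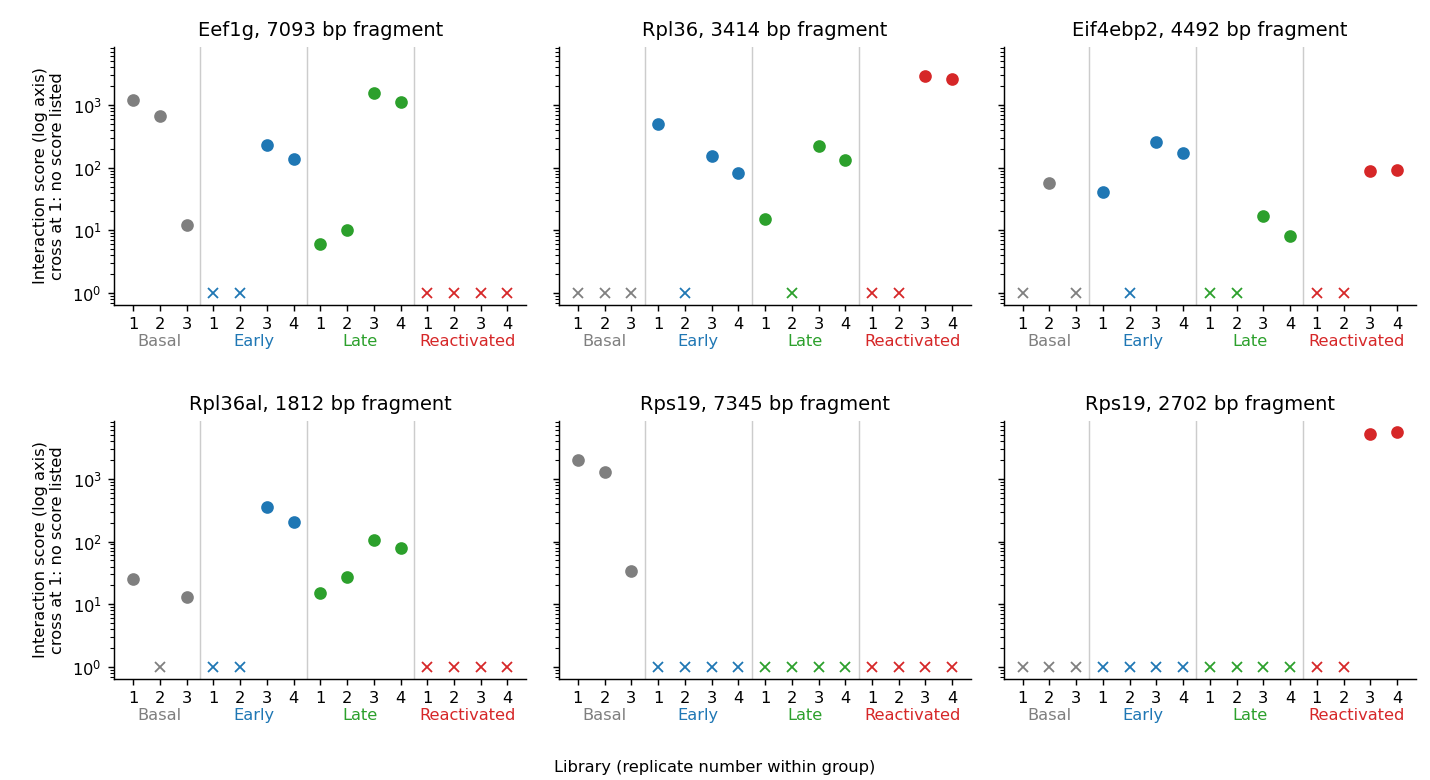
Interaction scores in each library (log axis; a cross at 1 marks no score) of the 4 most recurrent member fragments and of the *Rps19* fragments on chromosome 18 with the highest scores, by group. No fragment was scored in every library of every group, and the libraries of a group could lie far apart, as for *Eef1g* between 6 and 1541 in Late.

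Of the 393 member listings, 26 (6.62%) were scored in 5 or more libraries, against 7.94% of the other listings. In all, 64 member listings (16.3%) were on fragments listed also with another promoter, against 15.4% of the others. They involved 75 different partner promoters, and none was shared only between members. Scores were identical for every partner of all 64, and the table does not tell whether the member or its neighbour made the contact. On the gene's own chromosome, among promoters with 3 or more fragments, 64.7% of 303 member fragments lay within 500 kb of the promoter's own median position and 19.1% beyond 5 Mb, against 71.0% and 15.2% of the others. *Rps23* had all but 1 of its fragments between chr13:89731635 and chr13:94180688, and the last at chr13:112173801-112174513.

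Calls per group were read with the table as a whole beside them. The Basal libraries gave 108 calls among the 393 member listings (27.5%), the Early libraries 149 (37.9%), the Late libraries 135 (34.4%) and the Reactivated libraries 141 (35.9%), against 27.1%, 39.9%, 36.8% and 33.8% of the other listings. Basal has 1 library fewer. Without Basal 3 the Basal count was 54, and without Early 1 the Early count was 93, so single libraries supplied much of these counts. Initiation and elongation factors had the highest share called in Basal, 35.4% of 79 and 17 of 34, and large subunit proteins the lowest, 16.2% of 136.

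Groups were then compared with limma on each promoter's mean asinh(score) over its listed fragments, fitted over all 4429 promoters and 15 libraries, with Benjamini-Hochberg adjustment over all promoters. The asinh scale is close to a natural log for high scores and 0 where none is listed. In Early against Basal 0 of 50 members passed an adjusted p of 0.05, as did 0.0% of all promoters, and 1 of 50 had an unadjusted p under 0.05 against 5.83% of all. Of the members 27 were higher and 20 lower, with a median difference of 0.03 against 0.00 over all promoters. By role, 14 of 17 large subunit proteins were higher in Early, against 7 of 12 small subunit proteins, 4 of 12 initiation factors and 1 of 5 elongation factors. Of all promoters 49.7% were higher. The 14 included *Rpl13*, *Rpl13a*, *Rpl23a* and *Rpl28*, whose fragments all lay on other chromosomes and had no score in Basal. They also included *Rpl21* and *Rpl27a*, with part of their fragments on other chromosomes. These counts were not tested.

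The largest positive difference in Early against Basal was that of *Rpl36*, whose promoter means were 4.54, 1.98, 3.11 and 2.82 in Early and 0.00, 0.00 and 1.07 in Basal. These groups did not overlap, as in 4 of 50 members higher in Early (3.07% of all promoters), and the difference was 2.76 ± 1.92 (SE; limma adjusted p = 1.0). *Rpl27a* followed, with 2.39, 1.70, 2.09 and 1.86 in Early and 0.00, 0.00 and 1.09 in Basal, a difference of 1.65 ± 1.02 (limma adjusted p = 1.0). Its fragment chr7:116653648-116665596, with 8, 83, 261 and 134 in Early and 13 in Basal 3, was listed with the same scores for *Crebzf*, *St5* and *Trim66*. In the other direction stood *Rps15*, with 2.52 in Early 1, no score in the 3 other Early libraries, and 2.60, 2.28 and 1.94 in Basal, a difference of -1.64 ± 1.26 (limma adjusted p = 1.0). *Eef1a2*, scored in Basal 3 alone, gave -1.52 ± 0.71 (limma adjusted p = 0.830).

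In Late against Early, 0 of 50 members passed, against 0.0903% of all promoters, and 1 of 50 had an unadjusted p under 0.05 against 6.95% of all. Of the members 25 were higher and 22 lower, with a median difference of 0.00 against 0.06 over all promoters. *Eef1g* had the largest positive difference, with promoter means of 1.41, 1.02, 2.94 and 2.77 in Late and 0.00, 0.00, 1.65 and 1.49 in Early, 1.25 ± 0.73 (SE; limma adjusted p = 0.854). Its groups overlapped. *Rps15* gave 1.23 ± 1.16 (limma adjusted p = 0.981), from 3.77 and 3.66 in Late 3 and 4 and none in Late 1 and 2, and lay between 0.59 and 1.86 with a library left out at a time. *Rpl36* had the largest negative difference, with 1.91, 0.00, 1.52 and 1.39 in Late and 1.98 to 4.54 in Early, -1.91 ± 1.78 (limma adjusted p = 0.978). *Eif2s3x*, with no score in Late, gave -1.17 ± 1.09 (limma adjusted p = 0.978). *Rpl36* and *Rps7* were the members whose Late libraries all lay below Early, 2 of 50 against 1.29% of all promoters.

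In Reactivated against Late, 0 of 50 members passed, against 0.0677% of all promoters, and 13 of 50 (26.0%) reached an unadjusted p under 0.05 against 13.8% of all. Among these, 11 were higher in Reactivated, against 8.06% of all promoters. Of the members 37 were higher and 12 lower, with a median difference of 0.46 against 0.18 over all promoters. Of all promoters 58.5% were higher. After quantile normalization of the libraries the members divided into 22 higher and 27 lower, with medians of -0.05 for the members and -0.18 for all promoters. After scaling to the median library sum they divided into 28 higher and 21 lower, with medians of 0.09 and -0.09. The members' median thus stayed positive under scaling to the library sum and turned negative under quantile normalization. Under both it lay above the median of all promoters.

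Among the largest positive differences in Reactivated against Late was that of *Eif2ak2*, 3.93 ± 1.50 (SE; limma adjusted p = 0.280). Its single fragment chr17:79154971-79166042 had 2704 and 2584 in Reactivated 3 and 4 and 2 in Late 4. The difference rests on a pair of libraries that share 95.7% of their fragments. Without Reactivated 1 or without Reactivated 2 it passed, with limma adjusted p of 0.0435 and 0.0457. The share of all promoters passing in those fits is not given here. With both libraries left out, 43.8% of all promoters passed. *Rpl27a* had the largest negative difference, with no score in any Reactivated library and promoter means of 1.28, 1.21, 5.01 and 4.79 in Late, -3.07 ± 0.95 (limma adjusted p = 0.278). It was the 1 of 50 members whose Reactivated libraries all lay below Late, against 2.69% of all promoters, and with quantile normalization it passed at an adjusted p of 0.0435, as did 0.564% of all promoters. Its fragment shared with *Crebzf*, *St5* and *Trim66* had 1341 and 1030 in Late 3 and 4. Its fragment on chromosome 14 was scored in 2 libraries, at most at 626. Whether these scores belong to the *Rpl27a* promoter was not tested. *Eef1g*, at 1.28 and 1.30 in Reactivated 3 and 4 and none in Reactivated 1 and 2, gave -1.39 ± 0.73 (limma adjusted p = 0.406).

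Leaving out Reactivated 1 and 2, which hold 0 and 3 member listings, changed the count. Then 30 of 50 members (60.0%) passed in Reactivated against Late, as did 43.8% of all promoters, with a median difference of 1.74 for members and 1.10 for all. With quantile normalization as well, 9 of 50 (18.0%) passed, as did 8.33% of all promoters, with 33 members higher and 16 lower. The median difference there was 0.42 for members and 0.09 for all promoters. The counts were 27 of 50 in Reactivated against Basal and 28 in Reactivated against Early, against 45.6% and 44.9% of all promoters, and 6 of 50 in both with quantile normalization, against 7.23% and 7.34%. Among 392 member listings, 106, 108 and 109 passed in Reactivated against Late, Basal and Early (27.0%, 27.6% and 27.8%), against 25.3%, 25.1% and 25.3% of all listings. With quantile normalization these were 81, 85 and 82, against 19.4%, 19.2% and 18.9%. In Early against Basal and in Late against Basal, 2 of 392 passed, against 0.539% and 0.653% of all listings, or 0.708% and 0.794% with quantile normalization. Reactivated then consists of a single library set, so the spread within the group is that of libraries that share nearly all their fragments. The number of listings and the sum of scores of these libraries moved with the group, and their part in the result was not tested.

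The remaining comparisons share the same libraries. In Late against Basal, 0 of 50 members passed, against 0.0677% of all promoters, with 24 higher and 24 lower, and 3 had an unadjusted p under 0.05 against 8.2% of all. Of all promoters 57.0% were higher. *Rpl27a* had the largest positive difference there, 2.71 ± 1.02 (SE; limma adjusted p = 0.482), and its groups did not overlap, as for 4 of 50 members higher in Late against 5.37% of all promoters. *Eef1a2* gave the most negative value, -1.52 ± 0.71 (limma adjusted p = 0.590). In Reactivated against Basal, 0 of 50 passed, against 0.0226% of all promoters, and 6 had an unadjusted p under 0.05 against 11.2% of all. There were 37 higher and 12 lower, from *Eif2ak2* at 4.29 ± 1.62 (limma adjusted p = 0.423) to *Eef1a2* at -1.52 ± 0.71 (limma adjusted p = 0.434). That is 74.0% of members higher against 63.0% of all promoters, with median differences of 0.46 and 0.31. In Reactivated against Early, 0 of 50 passed, against 0.0% of all promoters, and 7 had an unadjusted p under 0.05 against 11.3% of all. There were 36 higher and 12 lower, from *Eif2ak2* at 4.29 ± 1.50 (limma adjusted p = 0.392) to *Rpl27a* at -2.01 ± 0.95 (limma adjusted p = 0.431). That is 72.0% of members higher against 61.6% of all promoters, with median differences of 0.64 and 0.26. Without Reactivated 1 or without Reactivated 2, *Eif2ak2* passed there, at limma adjusted p of 0.0409 and 0.0397. With both libraries left out, 44.9% of all promoters passed there. After quantile normalization the counts against Basal were 24 higher and 25 lower, and against Early 24 and 24; after scaling to the median library sum they were 25 higher and 24 lower against Basal, and 29 and 19 against Early.

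**Figure D5:**
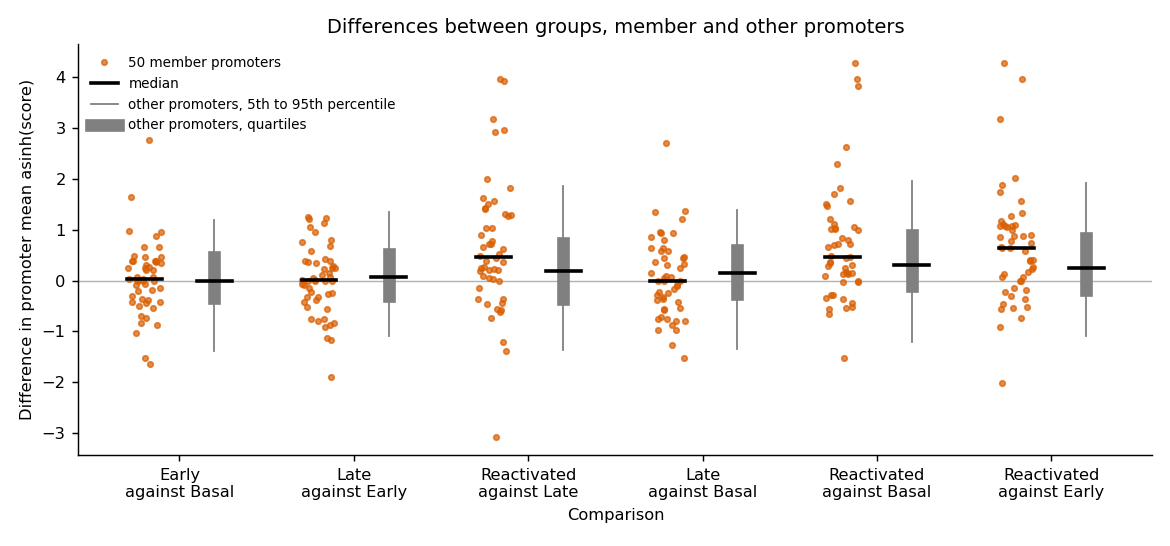
Differences in promoter mean asinh(score) in the 6 comparisons (x axis), as points for the 50 members with their median and, to the right, as quartiles and 5th to 95th percentiles for the other promoters. The members' medians lie at 0.46, 0.46 and 0.64 in Reactivated against Late, Basal and Early. They lie at 0.03 in Early against Basal and 0.00 in Late against Early and Late against Basal. Under quantile normalization the first 3 fell to -0.05, -0.0005 and 0.00, against -0.18, -0.05 and -0.12 over all promoters.

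Single fragments were compared in the same way. Over the 393 member listings, 0 passed in any of the 6 comparisons, as did 0.0% of all 36353 listings in each. Unadjusted p under 0.05 was reached by 33 of 393 (8.40%) in Early against Basal, 50 (12.7%) in Late against Early and 104 (26.5%) in Reactivated against Late, against 10.6%, 15.1% and 26.2% of all listings. In Late against Basal it was 39 (9.92%), in Reactivated against Basal 82 (20.9%) and in Reactivated against Early 83 (21.1%), against 12.9%, 20.3% and 21.3%. The members' larger share among promoters in Reactivated against Late, 26.0% against 13.8%, was thus not seen among listings. The largest positive difference was that of *Eif2s3x* with chrX:91454894-91456075 in Early against Basal, 4.69 ± 2.20 (SE), of *Eif5a* with chr11:69736748-69745326 in Late against Early, 4.11 ± 2.21, and of the *Rps19* fragment chr18:40891666-40894367 in Reactivated against Late, 4.64 ± 1.69. In the same order, the largest negative differences were -6.79 ± 1.90 for the *Rps19* fragment chr18:40685838-40693182, -5.05 ± 2.24 for *Eif4e3* with chr6:99637399-99645274, and -5.30 ± 2.60 for *Eef1g* with chr19:9055860-9062952. Each was larger in size than the positive one.

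Part of the rest of the translation machinery had promoters in the table. The protocol gives 5000 targeted promoters. Which promoters had baits is not in the table, so an absent gene may not have been targeted. Of 6 ribosomal proteins with other names, 4 were in the table, among them *Rplp0*, *Rplp1* and *Rpsa*. Of 27 termination, recycling and accessory factors, 5 were present, among them *Etf1*, which releases finished proteins. Of 33 translational control genes, 16 were present, among them *Mtor* and *Rictor* of the mTOR complexes and *Cpeb1*, *Cpeb2* and *Cpeb4*, which regulate polyadenylation. Of 22 cytosolic tRNA synthetases *Vars* alone was present, and of 45 ribosome biogenesis genes, 10. None of these 36 promoters passed in any comparison, and their median differences were 0.05 in Early against Basal, 0.20 in Late against Early and 0.01 in Reactivated against Late, with 19, 19 and 18 higher. The lowest adjusted p among them was 0.0659, in Late against Basal.

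Capture scores do not measure expression, so the sorted cell type could not be checked by them. Of the fixed marker lists, 7 of 9 neuronal, 5 of 6 astrocyte, 7 of 7 oligodendrocyte, 2 of 6 microglial and 1 of 4 endothelial genes had promoters in the table. The neuronal genes included *Gad1*, whose 11 fragments, of 54 in that list, all lay on another chromosome than its gene. Summed asinh scores of the neuronal list ran from 11.1 to 25.9 in Basal, 11.9 to 35.0 in Early, 19.8 to 63.5 in Late and 0.0 to 80.9 in Reactivated. Those of the oligodendrocyte list ran from 21.4 to 37.2 in Basal, 32.6 to 43.0 in Early, 8.91 to 67.3 in Late and 0.0 to 126.8 in Reactivated. Their part in the members' results was not tested.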

How the data were processed

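The table, as deposited by the authors, gives a score per library to pairs of a promoter and a fragment, per its header, on mm9, per the submitters' processing notes. Scores are whole numbers of 2 or more, with a dot where none is listed. Not given in the sources used here are the scoring program, the aligner, the filters and any normalization. Depth in reads is unknown, and scores of such unequal sums can carry differences in it. The labels' treatment field gives no recall for every sample and conflicts with the protocol, so groups were taken from titles.

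A pair with no score was set to 0 and nothing was filtered; asinh(score) was averaged per promoter. Limma 3.58.1 (R 4.3.3, statmod 1.5.0) was fitted once over all libraries with a robust variance trend, Benjamini-Hochberg adjustment and a threshold of 0.05, after a run on simulated data. Libraries of a group were joined into a set where they shared 40% or more of the smaller library's fragments. Replicate numbers did not pair the libraries. The members, lists, alternatives and role classes were chosen with earlier results of these data known. Members were named with their fragments and libraries, and some genes, counted in every total, are not reported here by name. For Early against Basal, Late against Early and Reactivated against Late the 2 largest differences each way were named, for the other comparisons the largest, besides the 4 members with most fragments and the 4 most recurrent fragments. *Rps6*, *Rps19*, *Rps23*, the *Rps7* promoter in Late against Early and the fragments on other chromosomes were singled out after their values were seen. Promoter sequences were the first RefSeq entry per gene on GRCm38.p6. Python 3.11.15 and matplotlib 3.10.9 were used for the rest.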

Additional observations from a re-analysis of the deposited data

Results flagged for a closer look

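In groups of 4 libraries, 24 sets of values were examined for a library far from the other 3, and 2 were marked. Chance marks about 1 in 20 for normally distributed values. That rate does not apply here, because a set with a score in a single library is always marked. The *Rps15* promoter mean was 2.52 in Early 1 and 0.00 in the 3 other Early libraries. The *Eif2ak2* promoter mean was 1.44 in Late 4, from a score of 2, and 0.00 in the 3 other Late libraries.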

How the results depend on the processing

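In the 6 comparisons, 0 member promoters and 0 member listings passed. This held with log2(score + 1), scaling to the median library sum, fragments in several libraries and fragments listed with 1 promoter. It also held with library sets as means or as a random block, and without listings off the annotated chromosome. With called interactions per promoter, which were not fitted by listing, 0 member promoters passed. Without the variance trend, 2 listings passed in each comparison against Basal. With quantile normalization, 1 promoter passed in Reactivated against Late. Without Reactivated 1 and 2, member promoters passing numbered 30 against Late, 27 against Basal and 28 against Early, and listings 106, 108 and 109, with 2 in Early against Basal and 2 in Late against Basal; with quantile normalization as well, they numbered 9, 6 and 6 for promoters and 81, 85 and 82 for listings, with 2 again in both others. That alternative, like the one on chromosomes, was chosen after seeing the data.

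With each library left out in turn, promoters passing ranged from 0 to 5 in Reactivated against Late and 0 to 3 in Reactivated against Early, reached without Reactivated 1 or 2, and stayed at 0 otherwise. Listings ranged from 0 to 12 in Early against Basal and 0 to 15 in Late against Basal, reached without Basal 3, and from 0 to 61, 0 to 47 and 0 to 53 in Reactivated against Late, Basal and Early, reached without Reactivated 1 or 2. The shares of all promoters and listings passing in these fits are not given here. These counts are therefore not read as particular to the members. Called member interactions ranged from 54 to 102 in Basal, 93 to 135 in Early, 107 to 132 in Late and 131 to 141 in Reactivated. The causes were not tested.

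Same-numbered libraries did not deviate together (r from -0.07 to 0.07 over 21 pairs), and with the replicate block 0 promoters and 0 listings passed in every comparison. Of the 17 named differences none changed sign in any of these fits that held the promoter. *Eef1a2*, scored in Basal 3 alone, had 14 fits with a library left out where the others had 15. It could not be fitted without Basal 3 or among fragments in several libraries, so its sign was not checked there. Of the 218 values of the named differences under other settings, 209 kept their side of the threshold and 9 came to pass it. Depth in reads is unknown; Reactivated 1 and 2 had 35 and 388 listings with a score.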
